A study of Bos taurus with 11 samples.

Results

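Mitosis and kinetochore genes encode the machinery that separates the copied chromosomes of a dividing cell: the cyclins and kinases that start mitosis, the condensins that compact chromosomes, the kinetochore that joins a chromosome to spindle microtubules, the checkpoint that waits for every joint, and the motors and scaffolds of the spindle and of cytokinesis. The set held 50 named genes, chosen by function with earlier results of these data known. They were found on the array by an exact match of the gene name that the scanner files give each probe. Of the 50 genes, 45 had at least 1 probe, and together they had 103 of the 43653 non-control probes, from 1 to 5 probes a gene. No probe carried the name MKI67, TOP2A, CENPA, KIF18A or MAD2L1.

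The arrays were 1-colour Agilent bovine oligonucleotide arrays hybridised with RNA from endometrial biopsies, the inner lining of the uterus, taken on day 7 of the oestrous cycle from 11 cows, with 1 array a cow. The 6 fertile cows had become pregnant by embryo transfer (ET) or artificial insemination (AI) within 3 attempts before biopsy and conceived again at the first transfer after it. The 5 subfertile cows had failed to conceive at 3 attempts in a row, although their cycles seemed normal and their genital tracts showed no abnormality. The labels name no treatment, breed or age for either group, and the study asks how endometrial transcript levels differ between the groups. Levels below are log2 of the scanner's processed signal minus the 75th percentile of the same array, so a level of 0 equals that percentile, and a difference is the subfertile mean minus the fertile mean.

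In cycling cells, transcripts of these genes accumulate late in the cell cycle and are lost after division, so that in a tissue their levels follow the number of dividing cells. The transcription programme is run by complexes of B-MYB (MYBL2) and FOXM1 in dividing cells and by the DREAM complex in resting ones. In the endometrium, epithelial and stromal cells divide under the control of ovarian steroids, and day 7 lies in the luteal phase, when the corpus luteum supplies progesterone. In a biopsy, fewer cells of a type and less RNA per cell cannot be told apart.

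Many of the results turn on single probes, because several genes had probes that did not give the same answer. A set of 6 called probes, 1 for each of 6 genes and each a 60-mer with an open reading frame on the strand printed, are shown 5′ to 3′ as the array files give them, in lower case with no base marked. They are named by gene, and coordinates are those of the array annotation, build Btau_3.1 per the file headers.
SPC24: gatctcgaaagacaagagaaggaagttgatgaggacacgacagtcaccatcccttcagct
SMC4: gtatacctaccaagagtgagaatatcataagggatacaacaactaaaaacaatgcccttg
BUB1B: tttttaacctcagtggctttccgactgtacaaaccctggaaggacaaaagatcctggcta
TPX2: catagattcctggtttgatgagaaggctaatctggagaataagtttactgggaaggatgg
CENPN: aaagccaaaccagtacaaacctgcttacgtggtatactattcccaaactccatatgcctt
ZWINT: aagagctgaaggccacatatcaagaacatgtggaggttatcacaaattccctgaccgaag
The SPC24 probe (A_73_P172352) lies on the minus strand of chromosome 7 (chr7:14042308-14042367) and starts at base 353 of its transcript. The SMC4 probe (A_73_P039466) lies on the minus strand of chromosome 1 (chr1:108867037-108867096) at transcript base 1387. The plus-strand probes are those of BUB1B (A_73_P476998, chr10:35740652-35740711, transcript base 2970), CENPN (A_73_P496063, chr18:6764739-6764798, transcript base 593), ZWINT (A_73_P373176, chr26:2365508-2365567, transcript base 327) and TPX2 (A_73_P331891, chr13:62156964-62163715, transcript base 486). The ends of the TPX2 probe lie 6752 bases apart in the genome, so that its 60 bases come from more than 1 exon.

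Many probes of mitosis and kinetochore genes were not read above background, in either group. Of the 103 probes, 57 were flagged by the scanner software as well above background on all 6 fertile arrays, 28 on some and 18 on none, while 41 were so on all 5 subfertile arrays, 25 on some and 37 on none. In single cows, 61 to 79 of the 103 probes were detected in fertile and 43 to 65 in subfertile endometrium, and the ranges overlapped only through subfertile cow 1. Over all non-control probes of the array the shares were 72.0% to 77.4% in fertile and 64.4% to 74.1% in subfertile cows, against 59.2% to 76.7% and 41.7% to 63.1% for the mitotic probes. For 6 genes no probe was well above background on any subfertile array: CENPE, a kinetochore motor; CENPK, an inner kinetochore subunit; TTK, the kinase that starts the checkpoint; CDCA8 (borealin) of the chromosomal passenger complex; ANLN (anillin), a scaffold of the cleavage furrow; and RACGAP1 of the central spindle. RACGAP1 was not above background on any fertile array either, whereas the best probe of TTK was detected in 4 fertile cows, those of CENPK and CDCA8 in 3 and that of ANLN in 1. The subfertile arrays were also dimmer as a whole, with median signals of 54.3 to 92.7 against 161.0 to 451.7 in fertile cows; the part of this in the mitotic differences was not tested.

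Probes well above background on at least 5 of the 11 arrays were tested: 66 of the 103 mitotic probes, which stand for 39 genes, among 31877 probes in all. In the limma fit over all of these (subfertile against fertile, Benjamini-Hochberg adjusted p below 0.05), 8 of the 66 probes (12.1%) were lower in subfertile cows, where 7.38% of all tested probes were, and 3 (4.55%) were higher, where 14.8% of all were. The filter admits a probe that is detected in fertile cows alone, and 3 of the 8 lower probes were detected in all 6 fertile and at most 1 subfertile cows (CENPE, BUB1B and CENPN). Of the 40 mitotic probes well above background on all 11 arrays, 4 were lower and 2 higher. The 11 called probes belong to 9 genes. Both probes of SPC24 and the only probe of CENPE were lower, as was 1 probe each of SMC4, CCNB1, BUB1B, TPX2 and CENPN, and both probes of ZWINT and 1 of INCENP were higher. The called probes of BUB1B, TPX2 and CENPN were not the brightest of their genes, and the brightest did not pass. The values of the 2 groups did not overlap for 5 lower probes (7.58%, against 3.9% of all tested probes) and for 1 higher probe (1.52%, against 9.65%). Of these 5, the CENPE and BUB1B probes were well above background on no subfertile array. Among the 40 probes well above background on all 11 arrays, 2 lower (5.0%) and 1 higher (2.5%) did not overlap. With 1 probe a gene, the brightest tested, 4 of 39 genes fell (10.3%, against 7.89% of all genes) and 1 rose (2.56%, against 14.2%). Of the 39 differences, 32 lay below 0 (82.1%, against 44.4% of all genes). Their median was -0.54, with a median of 0.06 over 18445 genes.

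**Figure D1:**
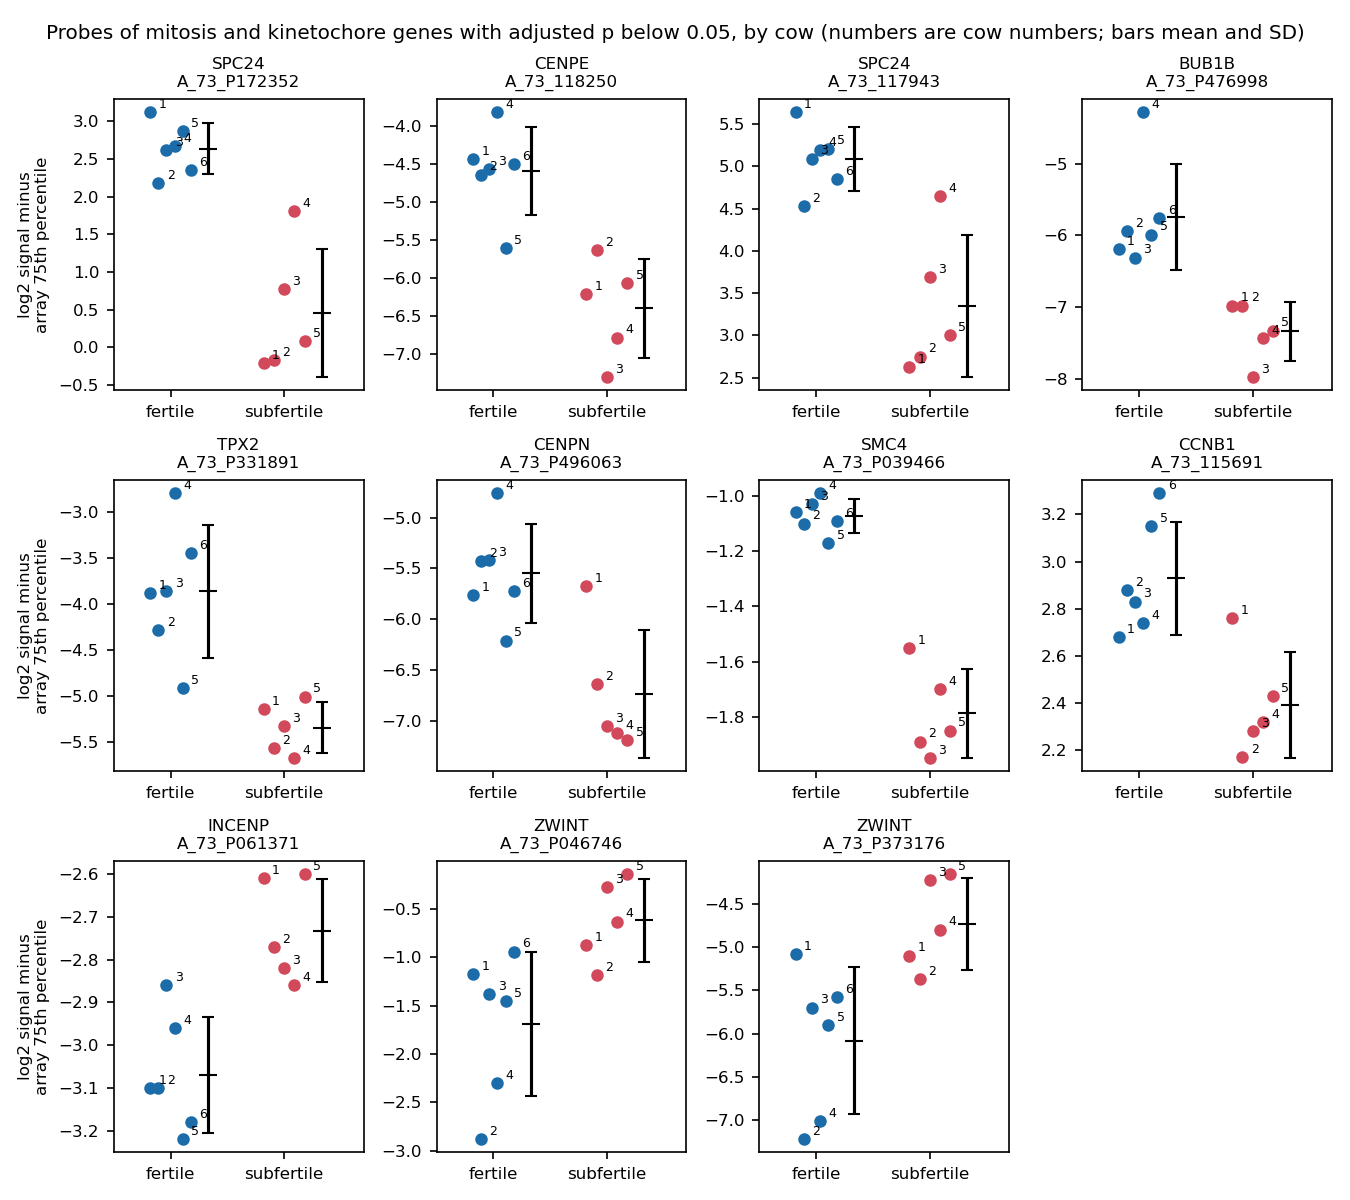
Level of each of the 11 called probes in each cow (vertical axis, log2 signal minus the 75th percentile of the array; scales differ between panels), with cow numbers beside the points and the mean and SD of each group as bars. The fertile and subfertile points do not overlap for SPC24 A_73_P172352, CENPE, BUB1B, TPX2, SMC4 and INCENP, and fertile cow 4 is the highest for CENPE, BUB1B, TPX2, CENPN and SMC4.

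The size and sign of many differences changed with how background was treated. The normexp setting also adds an offset of 50 to every signal before scaling. The 75th percentile of the signal was 514.3 to 836.5 on subfertile and 1549.1 to 4358.9 on fertile arrays. The same offset is thus larger relative to this percentile in subfertile cows. With normexp 14920 of all 31877 tested probes were called higher. The part of the offset in the changes of sign was not tested. With normexp background correction in place of the scanner's own, the median over the 39 genes was 0.27 and that over all genes 0.24, a shift of all genes upward from 0.06. Quantile normalization and median centring gave medians of -0.63 and -0.64 for the mitotic genes. Of the 40 mitotic probes well above background on all 11 arrays, 29 lay below 0 with a median of -0.37, and with normexp 18 did, with a median of 0.11. Of the other 26 tested probes, 22 lay below 0 with a median of -0.83, and with normexp 0 did, with a median of 0.84. Of all 31877 tested probes, 13893 lay below 0, and 8532 did with normexp. Of the called probes 4 fell under every one of these treatments of background and scale: both SPC24 probes, the brighter SMC4 probe and the brighter CCNB1 probe.

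The cyclins, CDK1 and the other factors of mitotic entry held 1 called gene of 8 tested. CCNB1, cyclin B1, the partner that activates CDK1 at the entry into mitosis, had levels of 2.68 to 3.29 in the fertile cows (median 2.86) on its brighter probe and 2.76, 2.17, 2.28, 2.32 and 2.43 in subfertile cows 1 to 5. Subfertile cow 1 lay within the fertile range and the other 4 lay below it. The difference was -0.53 ± 0.14 (SE), or 1.45-fold lower (adjusted p = 0.0228), and it was -0.48 with adjusted p = 0.0611 without subfertile cow 2. The second CCNB1 probe was at -0.46 ± 0.21 (adjusted p = 0.138), and the mean of both probes was at -0.50 (adjusted p = 0.0641). CCNA2, cyclin A2, which acts from DNA replication to early mitosis, ranged from -5.18 to -2.89 in fertile cows (median -4.44) and was -4.28, -5.37, -5.36, -5.60 and -5.46 in subfertile cows. Its probe was well above background in 2 of the 5 subfertile cows. The difference of -0.94 ± 0.36 did not pass (adjusted p = 0.0832) and was 0.55 with normexp correction. It passed without fertile cow 5 (-1.12, adjusted p = 0.0457) and without subfertile cow 1 (-1.18, adjusted p = 0.0395).

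CDK1, the kinase that drives mitosis, did not pass either. Its levels ran from -4.08 to -1.99 in fertile cows (median -3.36) and were -3.95, -3.81, -4.14, -4.20 and -4.00 in subfertile cows. All 5 subfertile cows thus lay in the lower part of the fertile range or beneath it, in a narrow band, while fertile cow 4 alone reached -1.99. The difference was -0.74 ± 0.29 (adjusted p = 0.0916), 0.07 with normexp correction and -0.90 with adjusted p = 0.0431 without fertile cow 5. Of the others, CCNB2 (-0.70), the kinase AURKA (-0.27) and the CDK1 subunit CKS2 (-0.25) lay below 0, and the kinase PLK1 (0.02) and the transcription factor FOXM1 (0.17) above it; none passed.

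Among the genes of chromosome structure, SMC4 had the smallest adjusted p of the 66 probes. SMC4 is the core ATPase that condensin shares between its 2 forms, with SMC2 as its partner. On the probe printed above its levels in fertile cows 1 to 6 were -1.06, -1.10, -1.03, -0.99, -1.17 and -1.09, and in subfertile cows 1 to 5 they were -1.55, -1.89, -1.95, -1.70 and -1.85. The groups did not overlap, and the fertile SD was 0.06 and the subfertile SD 0.16. The difference was -0.71 ± 0.10, or 1.64-fold lower (adjusted p = 0.000974), and stayed between -0.77 and -0.67 when any 1 cow was left out. The second SMC4 probe (A_73_P096691), also well above background on every array, was at -0.26 ± 0.14 (adjusted p = 0.187), so the 2 probes of this gene differ in the size of the change. SMC2 had differences of -0.31 ± 0.14 (adjusted p = 0.12) and 0.06 ± 0.18 (adjusted p = 0.84) on its tested probes. The condensin subunits NCAPH (-0.63) and NCAPG (-0.80) did not pass, although a second NCAPH probe was at -0.81 ± 0.28 (adjusted p = 0.0553).

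TOP2A, the topoisomerase that untangles sister chromosomes, has no probe by gene name, but 2 probes carry its symbol in the array's description column; this match was made after the values were seen. On A_73_P127466, well above background in 5 fertile and 1 subfertile cows, the fertile levels ran from -6.83 to -2.82 and the subfertile levels were -5.73, -7.28, -6.85, -7.69 and -6.32. The difference was -2.32 ± 0.61 (adjusted p = 0.0199), with a difference of 0.46 under normexp correction and an adjusted p = 0.0513 without subfertile cow 2. The fertile arrays alone were enough to admit this probe to the fit, and its p rests mostly on subfertile readings not well above background. The call was lost with slide, scan day or replicate number as a block (adjusted p = 0.0504, 0.139 and 0.0808). The other probe, A_73_P113056, was at -1.10 ± 0.40 (adjusted p = 0.0677). By the same column MAD2L1, a checkpoint protein, was at -0.14 and KIF18A, a kinesin, at 0.02. MKI67, the proliferation marker Ki-67, and CENPA, the centromeric histone, had no probe by either column.

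The inner kinetochore, the layer built on centromeric chromatin, had 2 tested genes with opposite signs. CENPN reads the centromeric nucleosome, and its dimmer probe, printed above, was well above background in 6 fertile and 1 subfertile cows. Fertile levels ran from -6.21 to -4.76 (median -5.58), and subfertile levels were -5.67, -6.64, -7.05, -7.12 and -7.19. Subfertile cow 1 lay inside the fertile range and the other 4 below it, and the difference was -1.18 ± 0.30 (adjusted p = 0.0184), but 1.04 with normexp correction. The fertile arrays alone were enough to admit this probe to the fit. Its p rests mostly on subfertile readings that were not well above background. The brighter CENPN probe, detected in all cows, was at -0.73 ± 0.26 and did not pass (adjusted p = 0.0654), with 0.12 under normexp correction. CENPH, another subunit of the same layer, was at 0.37 ± 0.14 (adjusted p = 0.0873) and passed without fertile cow 6 (0.46, adjusted p = 0.0232).

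The outer kinetochore held the largest differences in both directions among the genes found by name. The NDC80 complex, the rod that grips microtubules, is a tetramer of NDC80, NUF2, SPC24 and SPC25. SPC24 alone of the 4 passed, and on the probe printed above the fertile cows ran from 2.18 to 3.12 (median 2.65), and subfertile cows 1 to 5 were at -0.21, -0.17, 0.77, 1.81 and 0.09. All 5 lay below every fertile cow, with subfertile cow 4 nearest. The difference was -2.18 ± 0.34, or 4.52-fold lower (adjusted p = 0.00183). The second SPC24 probe, A_73_117943, ran from 4.53 to 5.64 in fertile cows (median 5.14) and was 2.63, 2.75, 3.69, 4.65 and 3.00 in subfertile cows, a difference of -1.74 ± 0.34, or 3.35-fold (adjusted p = 0.00536). On this probe subfertile cow 4 reached the fertile range and the other 4 did not. Both SPC24 probes were well above background on every array, kept their direction with normexp correction (-2.10 and -1.86) and passed when any 1 cow was left out.

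The 3 partners of SPC24 did not pass on any tested probe. NDC80 was at -0.58 ± 0.43 (adjusted p = 0.363), SPC25 at -0.39 ± 0.27 (adjusted p = 0.328) and NUF2 at 0.18 ± 0.20 (adjusted p = 0.532) on their representative probes. The difference of SPC24 from its partners was not itself tested. Levels differed too: the fertile means were 5.09 and 2.63 on the SPC24 probes. They were -4.24 for NDC80, -4.77 for SPC25 and -1.16 for NUF2 on the representative probes. Subfertile cow 1 was the lowest of its group for SPC24 and subfertile cow 4 the highest, as they were on the representative NCAPH probe. On the second tested NCAPH probe subfertile cow 4 was highest (-4.12), but cow 2 was lowest (-4.92), with cow 1 at -4.55.

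CENPE, the motor that carries chromosomes to the middle of the spindle, was detected in all 6 fertile cows and in 0 of 5 subfertile cows. Its fertile levels ran from -5.60 to -3.82 (median -4.54), and its subfertile readings, all not well above background, were -6.21, -5.63, -7.30, -6.78 and -6.06. For such a probe the fold is a bound, set by the dimmest signal that the scanner calls well above background on each array or the probe's own value where that is higher, and CENPE was at least 2.28-fold lower in subfertile cows (group means -4.60 and -6.40, adjusted p = 0.00426 in the fit). Its probe entered the fit through the fertile arrays alone, so this p adds nothing to the bound. With normexp correction its difference was 0.47 and did not pass. CENPF, a corona protein that takes part in dynein recruitment, was at -1.15 ± 0.50 (adjusted p = 0.122).

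ZWINT, which links the KNL1 scaffold to the corona and dynein recruitment, rose on both of its probes. The brighter one (A_73_P046746) was at -1.17, -2.88, -1.38, -2.30, -1.45 and -0.94 in fertile cows 1 to 6 and at -0.87, -1.18, -0.27, -0.63 and -0.14 in subfertile cows 1 to 5. Fertile cows 2 and 4 lay well below the other fertile cows, and subfertile cows 1 and 2 lay close to the upper fertile ones, with subfertile cow 2 inside their range. The difference was 1.07 ± 0.34, or 2.10-fold higher (adjusted p = 0.0428), and 1.35 ± 0.39 on the probe printed above (adjusted p = 0.0295). On the brighter probe the call was lost without any of fertile cows 2, 3, 4 or 5 or subfertile cows 1, 3, 4 or 5 (adjusted p from 0.0524 to 0.0989, differences from 0.83 to 1.13), and on the dimmer probe without fertile cow 4 or subfertile cows 3 or 5 (adjusted p from 0.0556 to 0.0719). With quantile normalization neither probe passed (adjusted p = 0.051 and 0.0557).

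The spindle checkpoint genes did not pass on their representative probes, and their probes gave mixed results. BUB1B (BubR1), which holds back the anaphase-promoting complex, had 1 called probe of 2 tested. That probe, printed above, was detected in 6 fertile and 0 subfertile cows, with readings of -6.31 to -4.28 in fertile cows and -6.98, -6.98, -7.98, -7.43 and -7.33 in subfertile cows. It was at least 1.04-fold lower by the bound (group means -5.75 and -7.34, adjusted p = 0.00768), a bound close to no change, and was at 0.96 with normexp correction. Like that of CENPE, the probe entered the fit through the fertile arrays alone, and its p rests on subfertile readings that were not above background. The brighter BUB1B probe was at -0.54 ± 0.38 (adjusted p = 0.332). BUB1, the kinase that recruits BUB1B and CENPF, was at -1.03 ± 0.57 (adjusted p = 0.213), and BUB3, the shared adaptor of both, was at 0.02, -0.31 and 0.34 on 3 probes, none of which passed.

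Among spindle motors and assembly factors TPX2, which activates AURKA on spindle microtubules, fell on 1 of 4 tested probes. The probe printed above ran from -4.92 to -2.80 in fertile cows (median -3.87) and was -5.15, -5.57, -5.33, -5.68 and -5.01 in subfertile cows, where 3 of 5 arrays read it well above background. The groups did not overlap, although fertile cow 5 at -4.92 lay close to the highest subfertile cow. The difference was -1.48 ± 0.31, or 2.79-fold lower (adjusted p = 0.00773), and 0.22 with normexp correction. The brightest TPX2 probe was at -0.48 ± 0.23 (adjusted p = 0.156), and another was at -0.78 (adjusted p = 0.0638), while the last was below background on all 5 subfertile arrays and is given no fold. The kinesin KIF4A was at -1.07 ± 0.56 (adjusted p = 0.188), the microtubule binder NUSAP1 at -0.74 and KIF2C, a microtubule-depolymerising kinesin, at 0.36. KIF11, the motor that pushes the spindle poles apart, had 4 probes and none was tested.

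In the chromosomal passenger complex, which corrects faulty attachments, INCENP gave opposite signs on 2 probes that were both well above background on all arrays. INCENP is the scaffold that binds AURKB. Its dimmer probe, A_73_P061371, ran from -3.22 to -2.86 in fertile cows and was -2.61, -2.77, -2.82, -2.86 and -2.60 in subfertile cows, with the highest fertile and lowest subfertile cow equal at 2 decimals, and it rose by 0.34 ± 0.10 (adjusted p = 0.0321). The brighter probe was at -0.29 ± 0.12 (adjusted p = 0.0991). The rise was lost without fertile cows 1, 2 or 5 or subfertile cows 1, 2 or 5 (adjusted p from 0.0533 to 0.0768), and with quantile normalization (0.25, adjusted p = 0.0844). BIRC5 (survivin) was at -0.91 ± 0.36 (adjusted p = 0.0923) and 0.45 with normexp correction, and AURKB, the kinase of the complex, was at -0.56 ± 0.32 (adjusted p = 0.225).

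None of the genes of anaphase and mitotic exit or of the central spindle passed. PTTG1 (securin), which restrains separase until anaphase, was at -0.68 ± 0.43 (adjusted p = 0.279), and ESPL1, separase itself, at -0.38 ± 0.29 (adjusted p = 0.368). The ubiquitin ligase partners UBE2C and CDC20 were at -0.56 and -0.09. PRC1, the bundler of midzone microtubules, was at -0.37 ± 0.21 (adjusted p = 0.237), with -0.53 and adjusted p = 0.0439 without fertile cow 3, and ECT2, the exchange factor that starts the cleavage furrow, was at -0.42 ± 0.26 (adjusted p = 0.263). The kinesins KIF20A and KIF23 were at -0.68 and -0.28. All 8 tested genes of these 2 roles lay below 0, where 44.4% of all genes did. With normexp correction PTTG1 and PRC1 alone did (-0.34 and -0.45), where 5731 of all 18445 genes did.

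**Figure D2:**
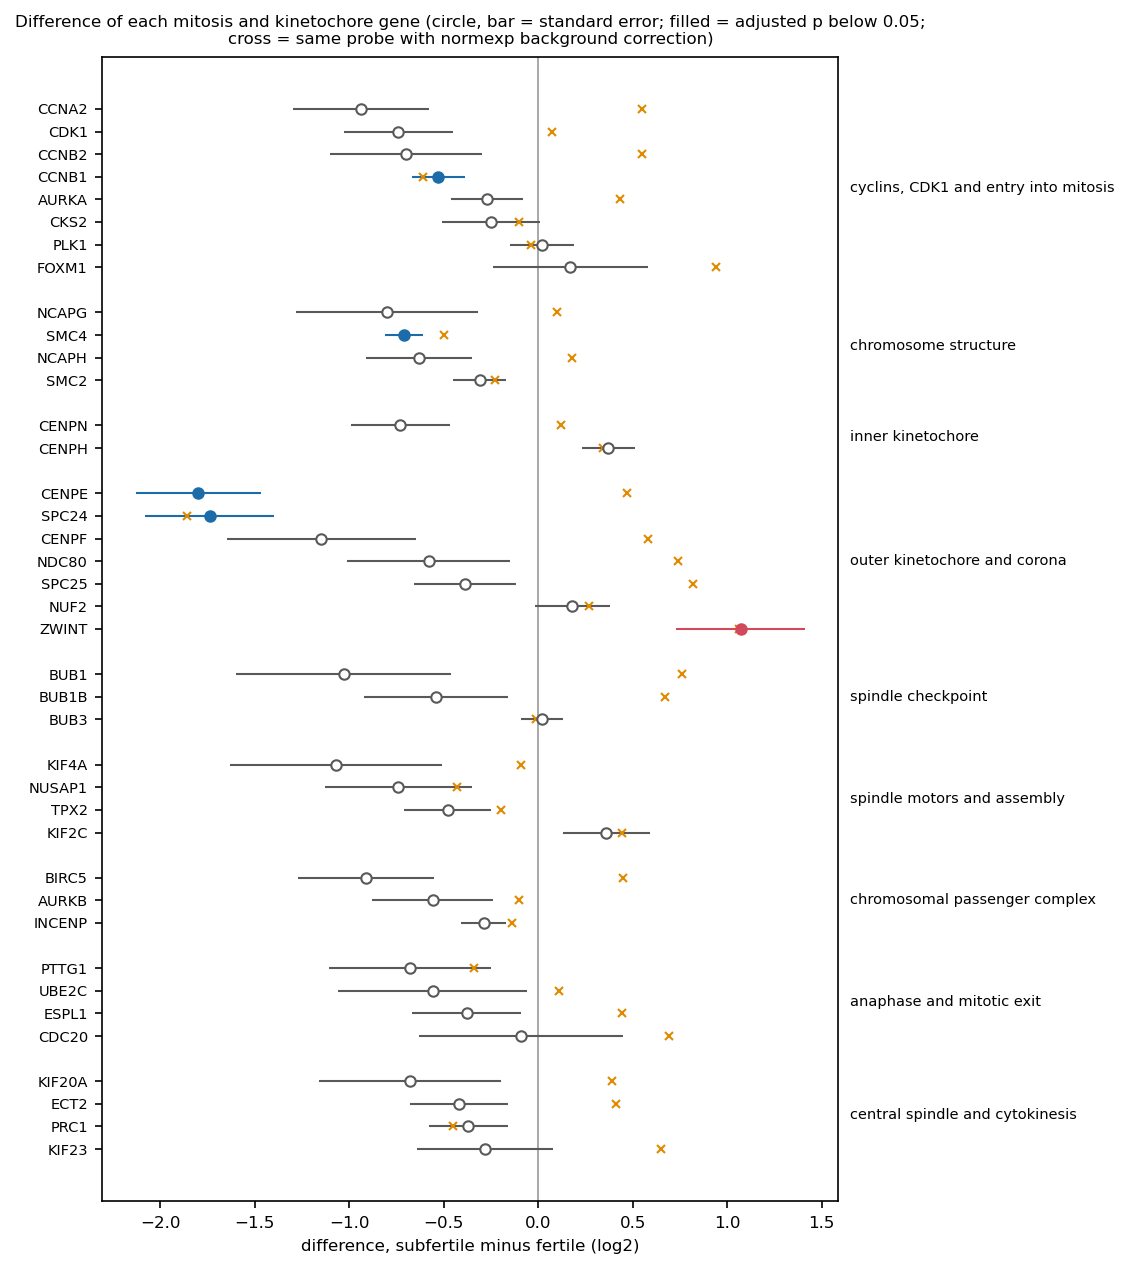
Difference of each of the 39 tested genes (horizontal axis, log2, subfertile minus fertile; 1 probe a gene), grouped by role, with the standard error as a bar and filled circles for adjusted p below 0.05; crosses give the same probe after normexp background correction. CENPE and SPC24 lie farthest to the left at -1.80 and -1.74 and ZWINT farthest to the right at 1.07, and the cross lies on the same side of 0 as the circle for SPC24, SMC4, CCNB1 and ZWINT but lies to the right of 0 for CENPE.

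The mitotic genes varied together between cows within each group. Fertile cow 4 had the highest level of the 6 fertile cows for 34 of the 39 genes, where it was highest for 14.3% of all tested probes, and the highest of all 11 cows for 32. The 5 exceptions were SPC24, SMC2, CCNB1, CENPH and ZWINT. Averaged over the 39 genes, fertile cow 4 lay 0.95 above the fertile mean, and fertile cow 5 lay lowest of its group at -0.60. Fertile cow 5 had the lowest fertile level for 25 genes, where it was lowest for 10.4% of all tested probes. In the subfertile group cow 1 was highest for 22 genes, where it was highest for 29.7% of all tested probes. It averaged -0.15, while cows 3 and 4 averaged -0.82 and -0.83. The means of subfertile cows 1, 2 and 5 (-0.15, -0.35 and -0.31) lay within the fertile range.

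Fertile cow 4 exceeded the mean of the other fertile cows by 2.35 for KIF4A, 2.07 for FOXM1 and 1.98 for UBE2C, but by 0.13 for SPC24 and 0.10 for SMC4. The median SD among fertile cows was 0.61 over the mitotic genes and 0.27 over all genes, and 0.39 without cow 4. Without fertile cow 4 the median difference over the mitotic genes moved from -0.54 to -0.29, 8 probes were still called lower, and 1 in place of 3 higher. Of all 31877 tested probes, 1992 were lower and 3970 higher without this cow, in place of 2351 and 4716. Among the 10 arrays with a known slide and scan day, fertile cow 4 was alone on its slide and its day (those of fertile cow 6 are not known), so that this cow and its slide cannot be told apart.

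**Figure D3:**
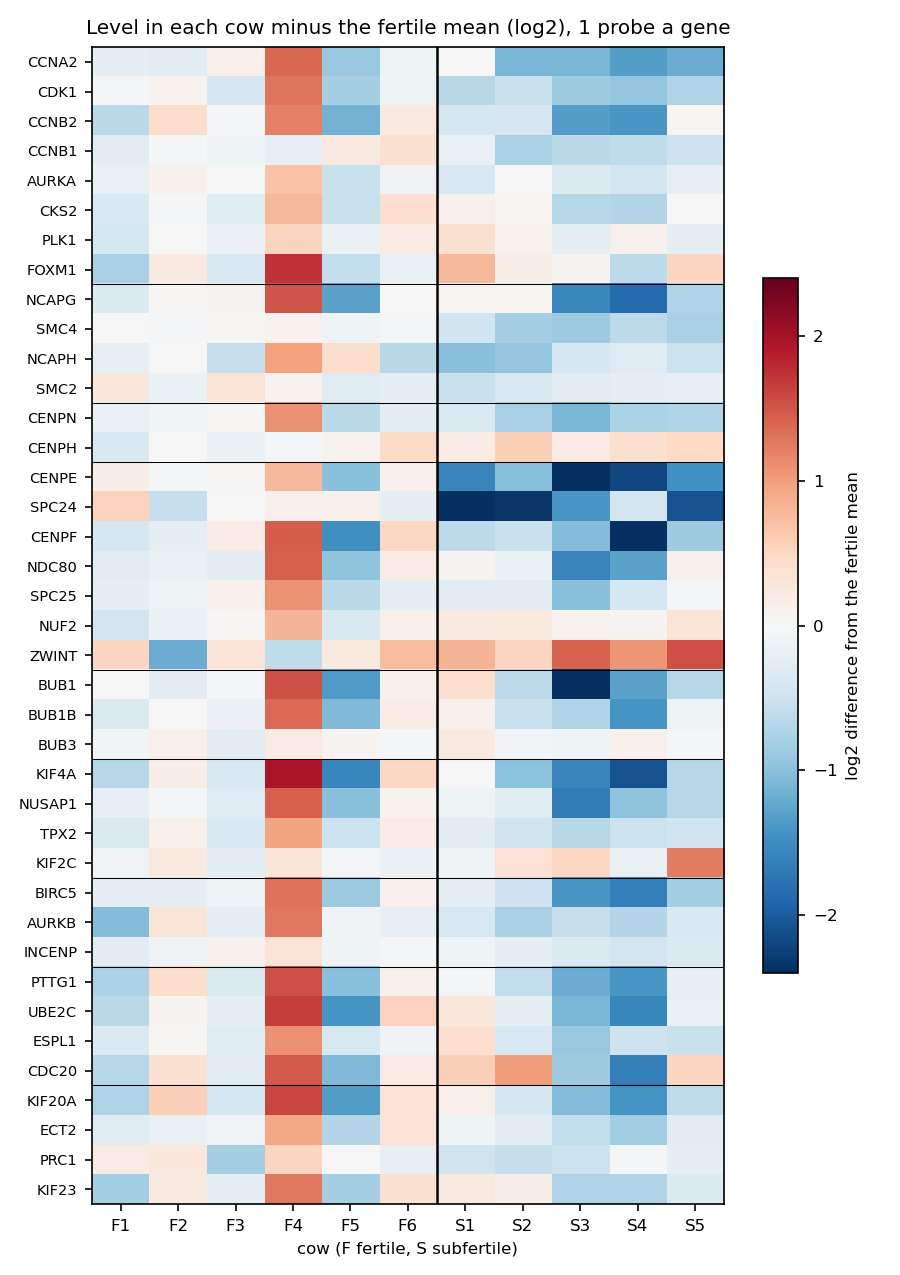
Level of each of the 39 tested genes in each cow minus the mean of the 6 fertile cows (colour, log2; columns are cows, rows are genes in the order of their roles). Fertile cow 4 is red in nearly every row, fertile cow 5 and subfertile cows 3 and 4 are mostly blue, and SPC24, ZWINT and SMC4 follow other patterns.

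The slide and scan day of fertile cow 6 are not known, and it was given a block of its own. Among the other 10 arrays 0 slides and 0 scan days held both groups, and all subfertile arrays were scanned on 1 day, so group and scan day cannot be told apart. With slide as a random block 6 of the 66 probes were lower (3.0% of all tested probes were) and 0 higher (8.52% of all were). These 6 included both SPC24 probes (adjusted p = 0.0152 and 0.0325), SMC4 (adjusted p = 0.00479) and TPX2 (adjusted p = 0.0164). The rest were CENPE (adjusted p = 0.0232) and BUB1B (adjusted p = 0.0197), whose probes entered this fit, too, through the fertile arrays alone. Their p values rest on subfertile readings that were not well above background, so these calls add no support. With scan day as a random block 1 was lower (0.599% of all) and 0 higher (2.47% of all). It was SMC4 (adjusted p = 0.0277), and the SPC24 probes had adjusted p = 0.0527 and 0.0974. Among fertile cows, the ZWINT probes differed by -0.88 and -1.17 between slides 2 and 1, and SMC4 by -0.08.

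Other mitotic genes, a list of 76 that share no gene with the 50, showed a smaller shift. Of 57 tested, 4 fell (7.02%) and 4 rose (7.02%), against 7.89% and 14.2% of all genes, with a median difference of -0.15 (0.20 with normexp correction). Of the 57, 43 lay below 0 (75.4%, against 44.4% of all genes). MASTL, the kinase that shields CDK1 substrates from dephosphorylation, fell by 1.61 ± 0.28 on the log2 scale (adjusted p = 0.00346), but was detected in 1 of 5 subfertile cows and was at 0.82 with normexp correction. NEK2, a centrosomal kinase, rose by 1.69 ± 0.32 (adjusted p = 0.0046), PMF1, a subunit of the MIS12 complex on which the NDC80 complex docks, by 0.76 ± 0.15 (adjusted p = 0.00549) and the kinesin KIF18B by 0.89 ± 0.22 (adjusted p = 0.0145). NEK2 and PMF1 levels did not overlap between the groups, but the mean of the PMF1 probes was at 0.26 (adjusted p = 0.252). Among fertile cows, NEK2 differed by 1.53 and PMF1 by 0.32 between slides 2 and 1. Fertile cow 4 was the highest fertile cow for 28 of the 57 genes, where it was highest for 14.3% of all tested probes.

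Of 21 tested regulators of mitotic transcription, from a list of 28, 3 fell (14.3%, against 7.89% of all genes) and 4 rose (19.0%, against 14.2%), with a median of -0.02. The second share is near that of all genes. MYBL2 (B-MYB), the activator of late cell cycle genes, fell by 0.91 ± 0.26 (adjusted p = 0.0266), a call lost without fertile cow 3 or subfertile cows 3 or 5 (adjusted p from 0.0527 to 0.0652). RB1, the retinoblastoma protein that represses E2F targets, fell by 0.38 ± 0.10 (adjusted p = 0.0248), lost without subfertile cows 3 or 4 (adjusted p = 0.0513 and 0.0547). CDKN1A (p21), a CDK inhibitor, rose by 1.05 ± 0.27 (adjusted p = 0.0185), from fertile levels with a mean of -0.87 ± 0.25 (SD, n = 6) to subfertile levels with a mean of 0.18 ± 0.68 (SD, n = 5). NFYC, a subunit of the factor that binds CCAAT boxes, rose by 0.45 ± 0.11 (adjusted p = 0.0158). With slide as a random block NFYC alone of these 4 passed (adjusted p = 0.0388), and with scan day 0 did (0.12 for NFYC). Over the mean of a gene's probes MYBL2 was at -0.41 (adjusted p = 0.205) and NFYC at 0.30 (adjusted p = 0.157).

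DNA replication genes had a median difference of 0.07, beside 0.06 over all genes: of 24 tested genes of 30, 2 fell (8.33%, near the 7.89% of all genes) and 0 rose. The 2 that fell, CHAF1A by 0.74 ± 0.18 (adjusted p = 0.0153) and CHAF1B by 0.61 ± 0.19 (adjusted p = 0.0398), are subunits of the assembly factor that places histones on new DNA. Neither call held in the fits blocked by slide (adjusted p = 0.0567 and 0.0924) or by scan day (adjusted p = 0.139 and 0.239). CHAF1B lost its call without any of fertile cows 1, 2, 4 or 5 or subfertile cows 1, 2 or 3 (adjusted p from 0.0608 to 0.0903). RRM1, a subunit of ribonucleotide reductase, was at 0.44 ± 0.15 (adjusted p = 0.0514) and GINS3, a subunit of the replicative helicase, at 0.42 ± 0.15 (adjusted p = 0.0607); each passed without fertile cow 6 (0.54 and 0.53, adjusted p = 0.0144 and 0.013). The mean of the list lay between -0.14 and 0.23 in every cow, with the fertile mean at 0.

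**Figure D4:**
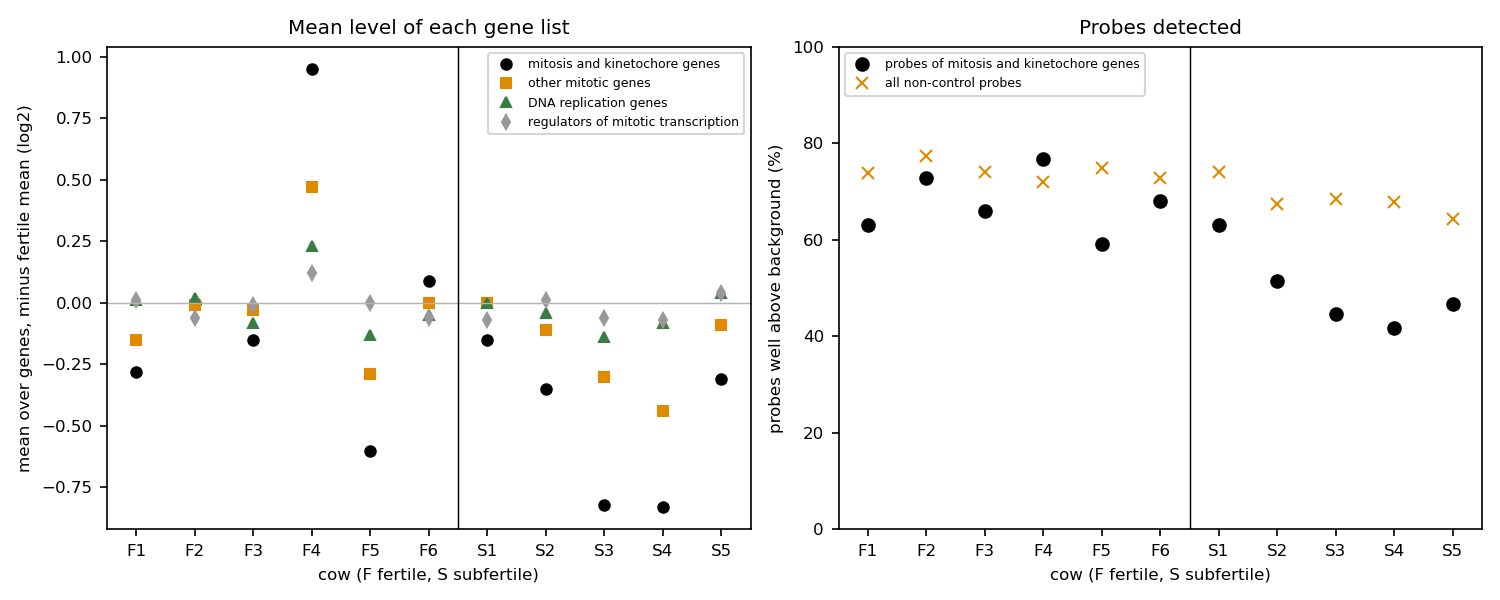
Left, mean level of each gene list in each cow minus its fertile mean (log2), for the 39 mitosis and kinetochore genes, 57 other mitotic genes, 24 DNA replication genes and 21 regulators of mitotic transcription; right, percent of probes well above background in each cow. Fertile cow 4 lies highest for all 4 lists, at 0.95 for the mitosis and kinetochore genes, and the mitotic probes are detected at lower shares than all probes on every array but that of fertile cow 4.

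The tissue label was checked against 9 uterine genes with a probe, among them PGR, ESR1 and HOXA10, all well above background on all 11 arrays. Markers of the cell types a biopsy can hold were read on the same arrays, where 7.89% of all genes were lower and 14.2% higher. Of 14 tested epithelial markers 8 rose and 0 fell, of which CLDN3 alone kept its call in the fit blocked by slide (adjusted p = 0.00833), and their mean level was 0.77 to 1.59 in fertile cows and 1.60 to 2.05 in subfertile cows. Of 13 stromal markers 2 rose and 2 fell, with mean levels of 2.89 to 3.13 and 2.50 to 3.03. Of 8 ciliated cell markers 3 rose and 0 fell (-2.72 to -1.74 and -2.41 to -0.37), of 8 smooth muscle markers 2 rose (2.21 to 3.81 and 3.08 to 5.11), and of 9 endothelial markers 2 rose (-1.39 to -0.98 and -1.34 to -0.60). Of 8 macrophage markers 1 fell (-2.18 to -0.80 and -1.80 to -0.79), and of 11 T and NK cell markers 2 rose (-0.94 to -0.36 and -0.87 to -0.36). Of 4 B and plasma cell markers 2 rose (-5.07 to -4.07 and -4.45 to -3.06), and of 4 red blood cell markers 1 rose and 1 fell (-5.17 to -4.12 and -5.36 to -3.31). VWF and ALAS2 were not well above background on any array. The part of these shifts in the mitotic differences was not tested.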

How the data were processed

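Endometrial RNA of 6 fertile and 5 subfertile cows was labelled with Cy3 and hybridised to 1 array each, per the labels' protocols, and Agilent Feature Extraction 10.5.1.1 read the signals (source: the submitters' processing notes). The deposited scanner files give a linear intensity for each spot. A further deposited table holds log2 values, which correspond to log2 signals scaled and centred per probe; for the mitotic probes their correlation with the scanner values was 0.921 for fertile cow 1 and 0.993 to 0.998 for the others. No columns were left unmapped (0). The file of fertile cow 6 has no header, and its probes were named from the files of the other cows.

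Control spots and outlier spots (1 to 156 an array) were left out, log2 processed signal minus the 75th percentile of the array was averaged per probe, and probes well above background on at least 5 of 11 arrays were fitted with limma 3.58.1 in R 4.3.3 (lmFit, eBayes, group only, two-sided, Benjamini-Hochberg over 31877 probes, threshold 0.05). A gene's representative probe is its tested probe with the highest mean. The 50 genes, the role lists, the other lists and the naming rule were chosen with earlier results of these data known. By that rule the text names every gene with a called probe, the 2 members with the smallest p in each of 9 roles, CCNB1, CCNA2, CDK1, MKI67, TOP2A and CENPE, every gene below background in a group, and the 4 genes with the smallest p in each other list. The fit was tested on simulated data with independent arrays and no slide or scan day effect. It recovered 56% of 2-fold and 89% of 4-fold changes, with 8 false calls among 153. The simulation changed 100 of 31877 probes by each fold, where the real fit called 2351 lower and 4716 higher. With fewer calls its cutoff on the unadjusted p was stricter, so these shares are not those of the real fit. A difference that did not pass may still be real. Each cow is a separate animal, and the number of arrays limits the precision. Other settings were normexp correction (offset 50), quantile normalization, median centring, the authors' table, other filters, each cow left out, slide and scan day as random blocks (consensus correlations 0.447 and 0.315), a replicate block, array weights, a trended robust variance, other naming and the mean of a gene's probes. The labels name no pairing of animals across groups, and cow numbers were not used as one in the main fit.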

Additional observations from a re-analysis of the deposited data

Results flagged for a closer look

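In 84 groups of values examined (each representative probe and 3 summaries, in each group of cows) 3 held a cow far from the rest of its group, by a gap to the nearest cow above the 95% limit for a group of that size; chance gives about 1 in 20. ESPL1 in fertile cow 4 was at -2.64, with the next fertile cow at -3.72. CCNA2 in subfertile cow 1 was at -4.28, with the next subfertile cow at -5.36. CENPF in subfertile cow 4 was at -7.44, with the next subfertile cow at -5.80.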

How the results depend on the processing

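The count of mitotic probes called lower (8) was 4 with normexp correction, 13 with median centring, 5 in a separate fit of the probes well above background on all 11 arrays, 1 with scan day as a random block, and 8 to 15 with 1 cow left out (15 without fertile cow 5). The count called higher (3) was 26 with normexp, 0 with quantile normalization, 1 with median centring, 9 with no filter, 0 with either random block (slide or scan day), and 0 to 4 with 1 cow left out (0 without subfertile cow 5). Over all 31877 tested probes, 2351 were lower and 4716 higher in the main fit. These counts were 2162 and 14920 with normexp, 3449 and 3136 with median centring, and 3146 and 3243 with quantile normalization. No filter gave 9644 higher of 43653. The separate fit of probes well above background on all 11 arrays gave 2219 lower and 4645 higher of 27131. With 1 cow left out, 1364 to 2654 of all probes were lower and 3163 to 4644 higher. The median over mitotic genes (-0.54) was 0.27 with normexp, -0.61 to -0.29 with 1 cow left out and -0.40 to -0.64 elsewhere. For other mitotic genes, 4 called lower became 2 with normexp, 7 with quantile normalization, 1 with slide and 0 with scan day in place of independent arrays, and 2 to 5 with 1 cow left out (2 without fertile cow 3 or subfertile cow 3); 4 called higher became 18 with normexp and 1 with scan day; the median (-0.15) was 0.20 with normexp. The share of mitotic probes detected, 67.6% in fertile and 49.5% in subfertile cows, was 90.5% and 76.5% by the scanner's other flag (positive and significant). The cause of these changes was not tested.

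With normexp these named probes changed sign: ESPL1 (0.44), ECT2 (0.41), BIRC5 (0.45), CCNA2 (0.55), CDK1 (0.07), CENPN (0.12 and 1.04), CENPE (0.47), BUB1 (0.76), BUB1B (0.67 and 0.96), TPX2 (0.22), MASTL (0.82) and TOP2A (0.60 and 0.46). With the mean of a gene's probes INCENP was at 0.02, and CENPN (-0.96), BUB1B (-1.07) and TPX2 (-0.88) passed. Of 40 named probes under all settings, 774 comparisons kept sign and side of the threshold, 82 lost the call, 27 gained it and 16 changed sign.

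With a replicate block, which pairs cows by number only, 7 mitotic probes were called lower and 3 higher, and 2 and 2 other mitotic genes; the median was -0.46. Deviations of cows with the same number correlated between -0.208 and 0.217. Such correlations cannot show whether animals were matched, and the labels name no pairing. Naming through the description column and the genes detected on all arrays were chosen after seeing the data and gave 9 lower, 3 higher and medians of -0.54 and -0.40. The planned shares of promoter and protein motifs were not run, since they need sequences not used here. Dim probes limit the precision: 37 of the 103 were not tested.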
